A study of Mus musculus with 24 samples.

Results

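The genes for mitochondrial ribosomal proteins were followed in DP (double-positive) thymocytes, T cell precursors that carry both CD4 and CD8. They were taken as every gene whose symbol in the array's probe-to-gene table starts with Mrpl or Mrps and a digit, and each was read from its probe set with the highest mean signal. This gave 76 of the 18193 genes with a probe set of their own. Of these, 49 encode proteins of the large subunit and 26 proteins of the small subunit, with Mrps18a and Mrps30 placed in the large subunit, where their proteins sit in spite of the names. The last, Mrps36, carries a ribosomal name but encodes a component of the 2-oxoglutarate dehydrogenase complex. Mrpl30 and Mrpl53 lie only on probe sets listed with several symbols and were not analysed here. Dap3, Ptcd3, Chchd1 and Gadd45gip1 also encode proteins of this ribosome and are on the array. Their names fall outside the rule, and they are not described here.

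Transcripts were read on 24 Affymetrix Mouse430_2 arrays, 1 per sample, from 12 male Black 6J mice aged 8 weeks. The 4 genotypes were wild type (WT), Sap knockout (SapKO), Elk knockout (ElkKO) and the knockout of both (ElkSapKO), with 3 mice each; how the alleles were made is not given in the sources used here. All groups held DP cells sorted from the thymus with antibodies to CD4 and CD8 and then rested for 2 hours. Cells of every mouse were then kept for 30 min either on uncoated plates (untreated) or on plates coated with anti-CD3, an antibody that engages the T cell receptor complex, which gave 8 groups of 3 arrays. Sap and Elk were read as Sap-1, encoded by Elk4, and Elk1, ternary complex factors of the ETS family that the study set out to follow in the positive selection of T cells.

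Mitochondria keep a ribosome of their own, which translates the few messenger RNAs of the mitochondrial genome, all of them for subunits of the respiratory chain and the ATP synthase. Its RNA is made inside the organelle, while its proteins are encoded in the nucleus, made in the cytosol and imported. Some of these proteins descend from bacterial ribosomal proteins, and others were added in the line of mitochondria. Promoters of nuclear genes for mitochondrial proteins are known for sites of the ETS factor GABP, of NRF1, of YY1 and of Sp1.

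The promoter sequences are shown because the knocked-out factors belong to the ETS family. RefSeq windows of 300 bases, from 250 before to 50 after a transcription start in GRCm38.p6, matched 67 members with 73 windows. On either strand, the ETS core CCGGAAG was in 25 of these windows, or 34.2%, against 8.86% of all 32851 windows and 13.0% of the 18010 windows of genes on the array. Of its 29 matches in member windows, 26 lay within 100 bases of the start. The NRF1 core CATGCGC was in 8 member windows, against 5.43% of the windows of array genes, and TGCGCA, an arm of the NRF1 site that can overlap this core, in 22 of the 73 member windows, or 30.1%, and in 1977 of the 18010 windows of array genes. The YY1 core AAGATGG was in 17.8% of member windows and 6.39% of the windows of array genes. The E-box CACGTG, at 9.59% and 8.74%, and the Sp1 box GGGCGG, at 53.4% and 52.4%, were at nearly the same shares in members and in array genes. A match describes letters in these windows and is not a measured binding site.

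Members also often shared their start region with a neighbour. A gene on the opposite strand started within 1000 bases in 27 of 73 member windows, or 37.0%, against 14.7% of windows of array genes. In Mrpl46 and Mrps11 both neighbours are members, 1 of the large and 1 of the small subunit, and their starts lie 42 bases apart. Stretches that end just before the start are printed for members with divergent partners or with calls described further on. The stretch before the start of Mrpl49 (chr19:6057756-6057946, minus strand) reaches to the start of Fau, that of Mrpl46 (chr7:78783090-78783130, minus strand) to the start of Mrps11, and that of Mrps18c (chr5:100798601-100798758, plus strand) to the start of Helq. The others are the 150 bases before the starts of Mrps18a (chr17:46110854-46111003, plus strand), Mrpl52 (chr14:54426759-54426908, plus strand) and Mrpl39 (chr16:84735245-84735394, minus strand). Capitals mark the Sp1 box in Mrpl49 and Mrpl46, the ETS core in Mrps18c, Mrps18a and Mrpl52, also the NRF1 arm in Mrps18a, the YY1 core in Mrpl52, and 2 overlapping NRF1 cores, 1 on each strand, in Mrpl39.
Mrpl49: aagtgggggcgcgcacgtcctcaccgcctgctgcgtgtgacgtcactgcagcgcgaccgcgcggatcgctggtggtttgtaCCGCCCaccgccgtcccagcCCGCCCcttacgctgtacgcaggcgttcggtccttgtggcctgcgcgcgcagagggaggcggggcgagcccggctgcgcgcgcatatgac
Mrpl46: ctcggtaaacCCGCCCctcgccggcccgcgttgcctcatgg
Mrps18c: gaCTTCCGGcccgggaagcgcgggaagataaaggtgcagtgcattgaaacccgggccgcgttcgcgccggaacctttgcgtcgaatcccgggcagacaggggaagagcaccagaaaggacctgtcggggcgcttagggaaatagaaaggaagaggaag
Mrps18a: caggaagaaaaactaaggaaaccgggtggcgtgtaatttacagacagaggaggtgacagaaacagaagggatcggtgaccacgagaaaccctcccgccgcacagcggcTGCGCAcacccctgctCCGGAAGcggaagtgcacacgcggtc
Mrpl52: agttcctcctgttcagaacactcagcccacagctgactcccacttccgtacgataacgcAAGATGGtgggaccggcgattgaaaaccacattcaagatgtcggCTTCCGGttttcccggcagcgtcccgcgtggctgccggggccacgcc
Mrpl39: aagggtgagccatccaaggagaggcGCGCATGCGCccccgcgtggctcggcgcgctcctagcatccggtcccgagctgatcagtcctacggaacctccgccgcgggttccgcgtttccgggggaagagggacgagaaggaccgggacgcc

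The arrays differed in ways that bear on what follows. The Elk4 signal was lower by 2.99 to 3.42 log2 units in SapKO and ElkSapKO arrays than in WT, and Egr1, an early gene of T cell activation, rose by 6.43 ± 0.133 (SE) on average with anti-CD3. Elk1 was near background at 4.67 log2 and checks no label. All 14 DP thymocyte markers were above background in every group, none of 22 markers of macrophages, granulocytes and erythroid cells was, and 1 of 9 for B cells and 1 of 11 for epithelium and stroma. The bacterial spike-in dap was low, at 5.84 to 6.66 log2, in WT mice 1 and 2 and in SapKO mice 1 and 3 in both states, and high, at 8.85 to 9.90, on all others. The 3′ minus 5′ signal of Actb, a measure of RNA quality, ran from 0.15 to 0.36 for WT, 0.17 to 0.24 for SapKO, 0.38 to 0.65 for ElkKO and 0.55 to 1.05 for ElkSapKO. The same measure on Gapdh did not separate the knockouts from WT in this way. It ran from −0.169 to 0.277 for WT and −0.185 to −0.087 for SapKO. For ElkKO it was −0.085 to −0.016, and for ElkSapKO −0.111 to 0.325. Gapdh was not used as a covariate. For ElkSapKO mouse 2 the untreated array was unlike the rest: its relative log expression had an interquartile range of 0.826, and no other array of the 24 exceeded 0.363.

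Mitochondrial ribosomal protein genes were expressed in DP cells and varied little. Their mean log2 signals ran from 6.21 to 10.59 with a median of 8.68, against a median of 5.56 for all genes. Background was taken from 21 genes of other tissues, whose median was 3.87 and whose highest was Prm1, a sperm gene, at 6.83. Of the 76 members, 74 were above that highest value. The other 2 were Mrps27, a mitochondrial addition to the small subunit, at 6.21, and Mrpl1, a protein of the ribosomal stalk, at 6.82. The SD within groups had a median of 0.148 over members and of 0.211 over all genes.

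The steadiest member was Mrps16, of the small subunit, with a pooled SD of 0.0708 and values of 9.56 to 9.86 over the 24 arrays. Mrpl13, Mrpl22 (a protein at the exit tunnel), Mrps36 and Mrpl46 followed with SDs of 0.0721 to 0.0895. The most variable was Mrpl44, whose protein has an RNase III-like fold, with an SD of 0.343. Its values in untreated ElkSapKO were 9.30, 7.95 and 8.87, and with anti-CD3 9.11, 9.28 and 8.44. Mice 1 to 3 are given in that order here and throughout. Mrpl4, Mrpl50, Mrpl16 and Mrpl38 followed with SDs of 0.216 to 0.265. In Mrpl4 the spread also came from ElkSapKO, at 7.58, 8.70 and 8.36 untreated and 7.52, 7.72 and 8.34 with anti-CD3, while the 18 arrays of other genotypes lay between 8.31 and 8.65.

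**Figure D1:**
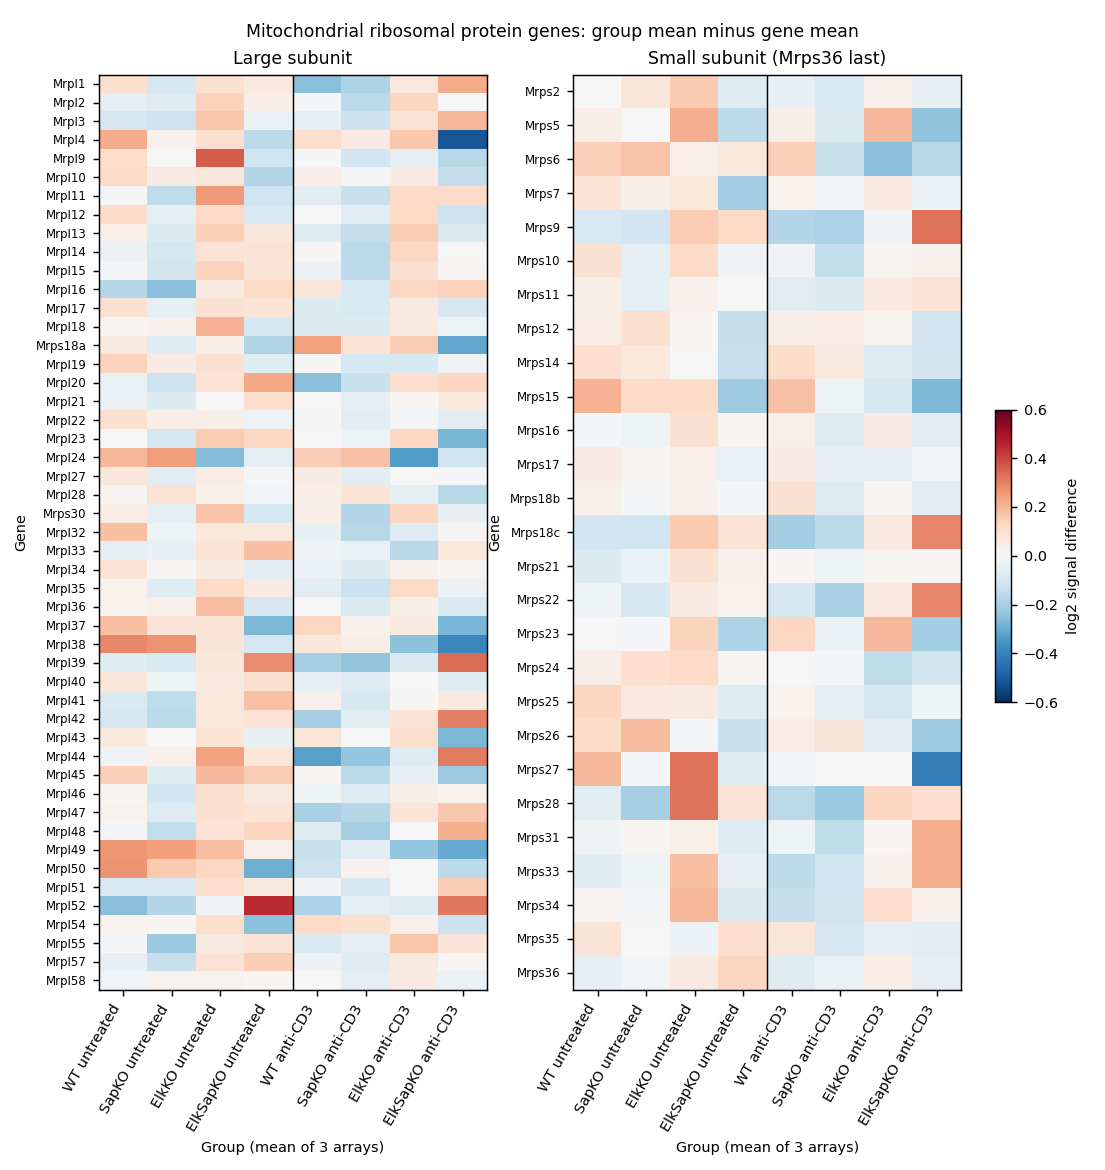
Group means of each member (3 arrays each) as log2 difference from the gene's mean over all 24 arrays, with genes in rows and the 8 groups in columns, untreated left of the black line and anti-CD3 right of it. Most cells are pale; deeper ones include Mrpl52, Mrpl4 and Mrps27 in ElkSapKO, Mrps27, Mrps28 and Mrpl9 in untreated ElkKO, Mrpl24 in ElkKO with anti-CD3 and Mrpl44 in WT with anti-CD3.

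The first comparison asked whether engaging the T cell receptor for 30 min moved these transcripts. In the response averaged over the 4 genotypes, 1 of the 76 members fell, Mrpl49, and none rose. That is 1.32% of members, near the 1.45% of all genes called (0.434% called lower) in limma's moderated test with Benjamini-Hochberg adjustment. Within single genotypes 0 members were called, while the share of all genes called was 0.352% for WT, 0.363% for SapKO, 0.203% for ElkKO and 0.346% for ElkSapKO. At an unadjusted p under 0.05 there were 2 members for WT (4.23% of all genes), 2 for SapKO (2.23%), 5 for ElkKO (2.56%) and 4 for ElkSapKO (7.92%), all lower. In the mean response there were 8, all lower, or 10.5% of members against 6.93% of all genes and 742 of the 7403 genes whose mean signal lay within the range of the members.

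Small shifts down were common. The median member changed by −0.0466 log2 in the mean response, with 60 of 76 below 0, while the median was 0.00678 over all genes, −0.0161 over these 7403 genes and −0.0205 over 48 cytosolic ribosomal protein genes. By genotype the median member changed by −0.0525 (WT), −0.0566 (SapKO), −0.0561 (ElkKO) and −0.0253 (ElkSapKO), with 55, 58, 59 and 43 members below 0. The median member was lower with anti-CD3 in 11 of 12 mice, with changes of −0.0849 to −0.0198, and higher by 0.0242 in WT mouse 2. Over all genes the median change per mouse ran from −0.135 in ElkSapKO mouse 2 to 0.0477 in ElkSapKO mouse 3. The 49 members of the large subunit had a median of −0.0474 in the mean response and the 26 of the small subunit −0.0305. In the SapKO response 33 of the 49 and 24 of the 26 were below 0, and in the ElkSapKO response 31 and 11 were. The WT and ElkKO responses are not split by subunit here. The ElkSapKO counts include mouse 2, whose untreated array was unlike the rest. Of all members, 46, 39 and 48 were lower with anti-CD3 in ElkSapKO mice 1, 2 and 3. The difference between subunits was not tested. Members with a bacterial homologue had −0.0529 and those of mitochondrial origin −0.032.

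**Figure D2:**
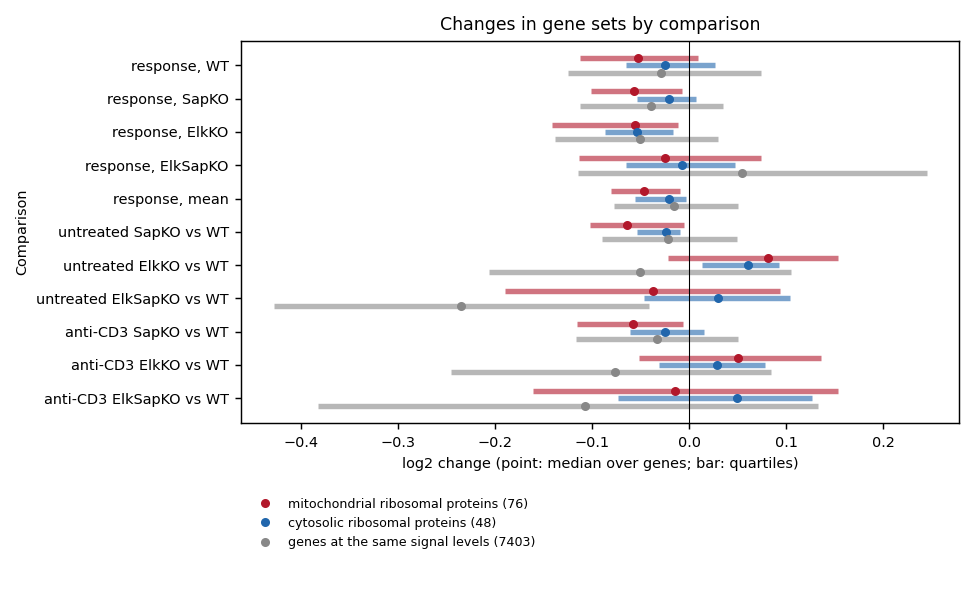
Median (point) and quartiles (bar) of log2 changes over 76 mitochondrial ribosomal protein genes, 48 cytosolic ribosomal protein genes and 7403 genes in the members' range of signals, by comparison. The member medians lie between −0.0637 and 0.0814, and in untreated ElkSapKO against WT the member median of −0.0371 contrasts with −0.235 for the genes in that range.

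Mrpl49, a protein of the large subunit with no bacterial homologue, fell in all genotypes when averaged. In WT its log2 signal was 8.19, 7.94 and 8.32 untreated and 7.76, 7.72 and 7.77 with anti-CD3. In SapKO it was 8.16, 8.22 and 8.01 untreated and 7.73, 8.08 and 7.64 with anti-CD3. In ElkKO it was 7.94, 8.04 and 8.23 untreated and 7.65, 7.64 and 7.66 with anti-CD3. The states did not overlap in WT and ElkKO, and did in SapKO. In ElkSapKO, too, they overlapped, with 7.75, 7.86 and 8.14 untreated and 7.36, 7.55 and 7.83 with anti-CD3. Within mice, however, Mrpl49 was lower with anti-CD3 in 12 of 12, with changes of −0.569 to −0.134 log2.

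The mean response of Mrpl49 was −0.37 ± 0.0718 (SE), or 1.29-fold lower, with an adjusted p of 0.00531. The genotypes gave −0.40 (WT), −0.31 (SapKO), −0.42 (ElkKO) and −0.34 (ElkSapKO), each with an SE of 0.144 and an adjusted p of 0.617 or more, so the call rests on the average. It stayed called in all 24 fits without 1 array, with adjusted p from 0.00183 to 0.0151, and with mouse as a block, at 0.00152. Its second probe set changed by −0.28 with an adjusted p of 0.126 among probe sets. Fau, whose start lies 192 bases from that of Mrpl49 on the other strand and which encodes a protein of the cytosolic small subunit, changed by −0.09 ± 0.058 (SE; adjusted p = 0.915). The stretch between these starts, printed above, held 2 Sp1 boxes, at −110 and −90.

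**Figure D3:**
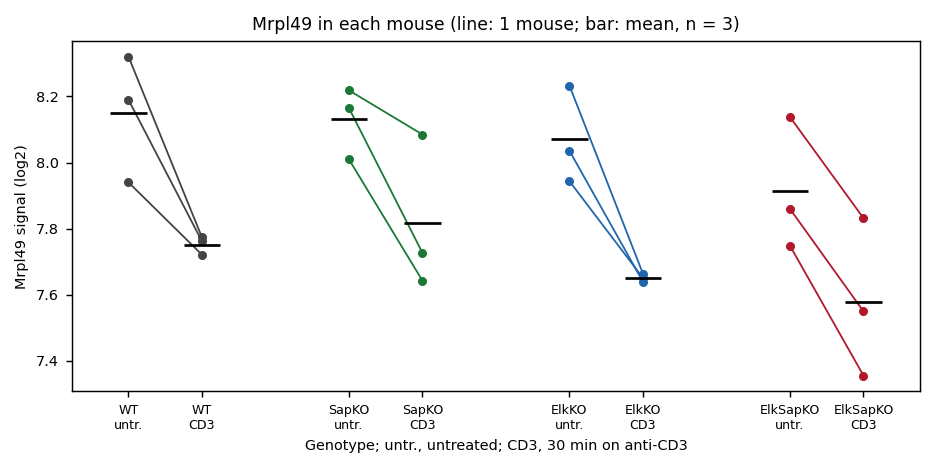
Log2 signal of Mrpl49 in the 12 mice, untreated and after 30 min on anti-CD3, by genotype; lines join the arrays of 1 mouse by its label and bars are means of 3. Each line falls, with changes of −0.569 to −0.134, and the lowest values are those of ElkSapKO mouse 1.

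Next to Mrpl49, the members with the smallest unadjusted p in the mean response were Mrpl38 (−0.26 ± 0.0864 SE, adjusted p = 0.227, lower in 12 of 12 mice) and Mrps6 (−0.20 ± 0.0719 SE, adjusted p = 0.324, lower in 9 of 12), neither called. Mrpl38 encodes a large subunit protein and Mrps6 one of the small subunit that binds its RNA. In ElkKO, Mrpl9, of the large subunit, was 9.56, 9.58 and 9.56 untreated and 9.16, 9.14 and 9.14 with anti-CD3. The states lay apart with little spread, yet the change of −0.42 ± 0.132 (SE) had an adjusted p of 0.907 in the model with one variance for all groups. With array weights, limma's down-weighting of noisy arrays, the adjusted p was 0.0281; with mouse as a block it was 0.884, and with the ElkKO groups alone 0.299. The other probe sets of Mrpl9 changed by −0.19 and −0.12, and the average of all 3 by −0.24 (adjusted p = 1).

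Other genes of mitochondrial translation gave few calls in the mean response. None of 11 translation factors, 16 mitochondrial aminoacyl tRNA synthetases or 12 genes of mitochondrial transcription and mRNA binding passed the test. Among 24 genes for assembly of the mitochondrial ribosome and modification of its RNA, 0 rose and 2 fell, and the median was −0.0713. These were Mrm2, a methyltransferase of the large ribosomal RNA (−0.54 ± 0.0832 SE, adjusted p = 0.000318), and Ddx28, a helicase needed for large subunit assembly (−0.32 ± 0.0706 SE, adjusted p = 0.0153). Mrm2 had a mean signal of 5.77, below the highest background gene. Of 11 regulators of nuclear mitochondrial genes, none was called.

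The response itself was compared between genotypes. Neither a member nor any other of the 18193 genes had a response that differed from WT in SapKO, ElkKO or ElkSapKO at an adjusted p under 0.05 in limma, where the share called was 0 in each. At an unadjusted p under 0.05 there were 0, 0 and 1 members, against 0.786%, 0.907% and 5.4% of all genes. The 1 member was Mrpl1, whose response was higher in ElkSapKO than in WT by 0.51 ± 0.214 (SE; adjusted p = 0.703). In WT, Mrpl1 was 7.001, 6.84 and 6.92 untreated and 6.41, 6.60 and 6.70 with anti-CD3, without overlap. In ElkSapKO it was 7.09, 6.56 and 6.99 untreated and 7.18, 7.11 and 6.83 with anti-CD3, and the states overlapped. Within these mice Mrpl1 changed by 0.09, 0.55 and −0.16. The largest change was that of mouse 2, whose untreated array was unlike the rest.

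Loss of Sap left the members without a call. Against WT, 0 of 76 were called in untreated SapKO cells, where 0.0824% of all genes were, and 0 with anti-CD3, where 0.0715% were. At an unadjusted p under 0.05 the count of members was also 0 in both, against 1.65% and 2.97% of all genes. The median member differed from WT by −0.0637 untreated, with 59 of 76 below 0, and by −0.0579 with anti-CD3, with 57 below 0. Over all genes the medians were −0.0121 and −0.0276, with 54.6% and 57.8% below 0. Of the 48 cytosolic ribosomal protein genes 38 were below 0 untreated and 30 with anti-CD3, with medians of −0.0241 and −0.0252. The smallest unadjusted p belonged to Mrpl32 untreated (−0.21 ± 0.11 SE) and Mrps6 with anti-CD3 (−0.27 ± 0.144 SE), each with an adjusted p of 1. Mrpl32 encodes a large subunit protein that is matured by the m-AAA protease.

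Loss of Elk gave no member call either, at 0.0989% of all genes called untreated and 0.22% with anti-CD3. At an unadjusted p under 0.05 there were 2 members untreated (7.21% of all genes), 1 higher and 1 lower, and 7 with anti-CD3 (11.4% of all genes), 4 higher and 3 lower. The median member lay higher than in WT, by 0.0814 untreated, with 49 of 76 above 0, and by 0.0504 with anti-CD3, with 51 above 0. Over genes in the members' range of signals the medians were −0.0511 and −0.0768, and over cytosolic ribosomal protein genes they were positive as in the members.

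The dap spike-in also differed between these groups. The median member signal per array was 8.52 to 8.71 on the 8 arrays with low dap and 8.65 to 8.87 on the 16 with high dap. All ElkKO arrays had high dap. In untreated cells the ElkKO medians were 8.80 to 8.87, and WT mouse 3, with high dap, was at 8.79 while WT mice 1 and 2 were at 8.71 and 8.65. With anti-CD3 the ElkKO medians were 8.70 to 8.73, and WT mice 1 to 3 were at 8.64, 8.71 and 8.75. Untreated ElkSapKO arrays, also with high dap, were at 8.69, 8.66 and 8.75. With dap class in the model the median member differed from WT by 0.0288 untreated and 0.00565 with anti-CD3. What sets the dap level and its part in the shift were not tested.

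**Figure D4:**
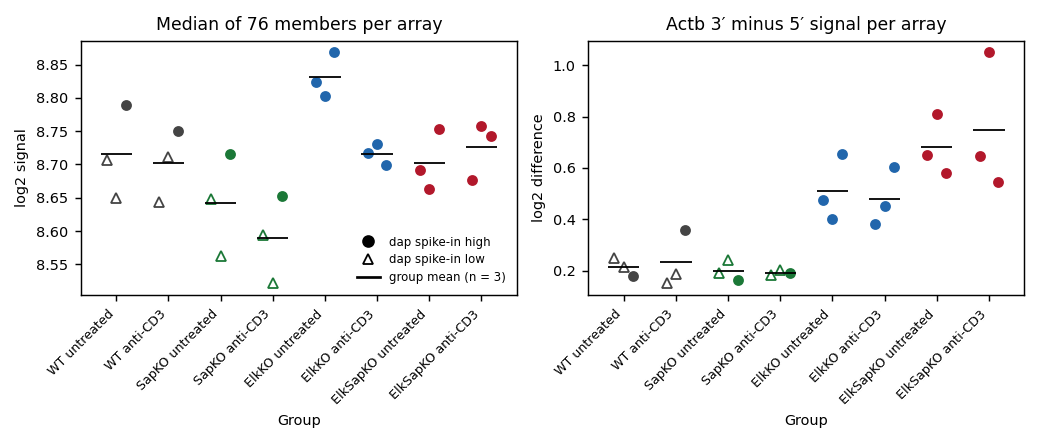
Left, the median log2 signal of the 76 members on each array, by group; right, the Actb 3′ minus 5′ difference in log2 units on the same arrays. Filled circles are arrays with high dap spike-in, open triangles arrays with low dap, and lines group means of 3; the low-dap arrays of WT and SapKO lie at or below 8.71 on the left, and ElkKO and ElkSapKO lie above WT and SapKO on the right.

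Mrpl24, a large subunit protein whose bacterial relative joins early in assembly, had the smallest p in ElkKO in both states. Untreated it was 10.29, 10.45 and 10.28 in WT and 9.82, 9.83 and 10.00 in ElkKO. With anti-CD3 it was 10.28, 10.42 and 10.17 in WT and 9.75, 9.82 and 9.86 in ElkKO. The genotypes did not overlap in either state, although Mrpl24 was picked by its p on these same arrays. SapKO lay with WT, at 10.27 to 10.44 over its 6 arrays, and ElkSapKO lay between, at 9.93 to 10.25.

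The difference of Mrpl24 between ElkKO and WT was −0.46 ± 0.105 (SE) untreated, with an adjusted p of 0.104, and −0.48 ± 0.105 (SE) with anti-CD3, with an adjusted p of 0.0577. Neither passed the threshold. With anti-CD3 it passed without any 1 of the 3 untreated ElkSapKO arrays (adjusted p = 0.0463, 0.017 and 0.0366 without mouse 1, 2 and 3), and untreated without that of mouse 2 (0.0325). With array weights both passed (adjusted p = 0.00124 untreated and 0.00195 with anti-CD3), and with genes of mean log2 under 6 left out the anti-CD3 difference did (0.0339). With mouse as a random block the adjusted p was 0.0487 with anti-CD3 and 0.0864 untreated. With dap class in the model the differences were −0.41 and −0.43, with adjusted p of 0.565 and 0.345. The Actb 3′ minus 5′ difference was higher in every ElkKO array than in any WT array. It and the loss of Elk therefore cannot be told apart here.

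Mrps28, a small subunit protein, was higher in each untreated ElkKO array, at 8.85, 8.84 and 8.87, than in WT, at 8.43, 8.40 and 8.55. The difference of 0.39 ± 0.117 (SE) had an adjusted p of 0.265. Mrpl20, which joins the large subunit early in its assembly, was 9.42, 9.36 and 9.27 in WT with anti-CD3 and 9.73, 9.59 and 9.78 in ElkKO. Here too the groups did not overlap, and the difference of 0.35 ± 0.105 (SE) had an adjusted p of 0.17.

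Loss of both factors was the comparison with the most calls. In untreated ElkSapKO cells 2 of 76 members differed from WT, Mrpl52 higher and Mrps15 lower. That is 2.63% of members, against 3.44% of all genes, 0.753% higher and 2.69% lower. With anti-CD3, 4 rose above WT (Mrps18c, Mrpl20, Mrpl39 and Mrps9) and 2 were lower (Mrps15 and Mrps18a). That is 7.89% of members, near the 6.83% of all genes, of which 1.4% were higher and 5.43% lower. At an unadjusted p under 0.05 there were 12 members untreated and 25 with anti-CD3, which is 15.8% and 32.9% of members against 23.4% and 21.5% of all genes. Of the 7403 genes in the members' range of signals, 61 were called higher and 423 lower untreated, and 113 higher and 854 lower with anti-CD3.

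The members with low p lay on both sides of WT. With anti-CD3 the 25 members with an unadjusted p under 0.05 were 13 higher and 12 lower, while of the 2554 such genes among those 7403, 522 were higher and 2032 lower. The median member differed from WT by −0.0371 untreated and −0.0149 with anti-CD3, with 42 of 76 below 0 in both. Over genes in the same range the medians were −0.235 and −0.107, and over cytosolic ribosomal protein genes 0.0296 and 0.049.

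Mrpl52, a large subunit protein without a bacterial homologue, was 9.32, 9.16 and 9.15 in untreated WT cells and 9.98, 10.25 and 9.51 in ElkSapKO. The groups did not overlap, with mouse 3 nearest to WT. The difference was 0.70 ± 0.16 (SE), or 1.63-fold (adjusted p = 0.02). On 2 other probe sets of Mrpl52 with signal, however, it was 0.08 and 0.05, with adjusted p of 0.664 and 0.82 among probe sets, and with its probe sets averaged it was 0.19 (adjusted p = 0.263). The promoter stretch of Mrpl52 holds an ETS core at −47.

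Mrps15, a small subunit protein whose bacterial relative binds the ribosomal RNA early in assembly, was lower in both states. Untreated it was 8.38, 8.44 and 8.32 in WT and 7.89, 7.79 and 8.18 in ElkSapKO. With anti-CD3 it was 8.42, 8.33 and 8.28 in WT and 7.71, 8.13 and 7.86 in ElkSapKO. The genotypes overlapped in neither state. The differences were −0.43 ± 0.115 (SE; adjusted p = 0.0446) and −0.45 ± 0.115 (SE; adjusted p = 0.0242). Its second probe set with signal had −0.34 and −0.26, with adjusted p of 0.166 and 0.34 among probe sets. A dim probe set, at a mean of 5.47, had 0.75 and −0.06. With all 3 averaged the differences were −0.0077 (adjusted p = 0.963) and −0.26 (adjusted p = 0.125).

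Of the 3 genes of the Mrps18 family, 1 was called higher and 1 lower with anti-CD3, and none untreated. They encode relatives of a single bacterial protein that occupy different places in the ribosome. The difference between these genes was not tested. With anti-CD3, Mrps18c of the small subunit was 9.48, 9.59 and 9.58 in WT and 10.20, 10.00 and 9.95 in ElkSapKO, a difference of 0.50 ± 0.132 (SE; adjusted p = 0.0264). Mrps18a of the large subunit was 8.49, 8.73 and 8.41 in WT and 7.75, 7.88 and 8.34 in ElkSapKO, a difference of −0.55 ± 0.158 (SE; adjusted p = 0.0384). The groups did not overlap in either gene, although mouse 3 came within 0.1 of WT in Mrps18a. Both windows hold an ETS core, at −156 in Mrps18c and at −26 in Mrps18a. The core at −156 lies close to the start of Helq, which is 159 bases from that of Mrps18c on the other strand. Mrps18b, with means of 7.55 ± 0.141 (SD, n = 3) in WT and 7.39 ± 0.227 (SD, n = 3) in ElkSapKO with anti-CD3, was not called.

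Mrpl20 with anti-CD3 was 9.67, 9.77 and 9.74 in ElkSapKO, above each WT array and within the range of ElkKO, and differed from WT by 0.38 ± 0.105 (SE; adjusted p = 0.0339). Mrpl39, a large subunit protein related to a tRNA synthetase, was 10.15, 10.15 and 10.10 in WT and 10.92, 10.84 and 10.25 in ElkSapKO, with mouse 3 again nearest to WT. Its difference was 0.54 ± 0.16 (SE; adjusted p = 0.046), and 0.13 (adjusted p = 0.54 among probe sets) on its other probe set. Mrps9, a small subunit protein whose bacterial relative contacts the tRNA, was 8.13, 8.22 and 8.26 in WT and 8.65, 8.80 and 8.67 in ElkSapKO. Its difference was 0.50 ± 0.15 (SE; adjusted p = 0.0472), with 0.49, −0.15 and 0.31 on its other probe sets. With probe sets averaged, Mrpl39 and Mrps9 were no longer called (adjusted p = 0.102 and 0.116).

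**Figure D5:**
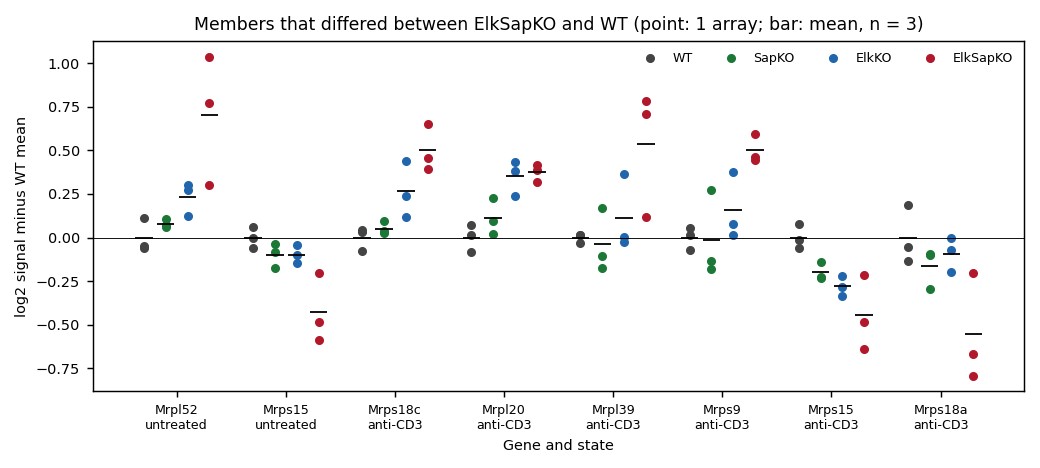
Log2 signal minus the WT mean of the same state for the members called in ElkSapKO against WT, 1 point per array in each of the 4 genotypes, with bars for means of 3. ElkSapKO points lie outside the WT points in each gene in the state shown, and those of Mrpl52, Mrpl39 and Mrps18a spread most. The genes were picked as called on these same arrays, so this separation adds no support to the calls.

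None of these ElkSapKO calls held in every fit. All 8 were lost when only the 2 groups compared were in the model (adjusted p from 0.0739 to 0.665), and with dap class (0.0906 to 0.288) or the Actb 3′ minus 5′ difference (0.347 to 0.871) as a covariate. The Actb difference was higher in every ElkSapKO array than in any WT array, so it and the genotype cannot be told apart here. Without the untreated array of ElkSapKO mouse 2, 0 members were called untreated and 13 with anti-CD3, 10 higher and 3 lower. Without that of mouse 3 the counts were 10 and 8. The shares of all genes called in these fits are not given here, so these counts cannot be set against them. Mrpl52 was not called without any 1 of the WT untreated arrays (adjusted p = 0.0601 to 0.0773) or without the ElkSapKO untreated array of mouse 1 (0.0599) or 2 (0.0566).

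The anti-CD3 calls depended likewise on the arrays compared. Mrps18c, Mrpl20 and Mrps18a were lost without any 1 of the WT arrays with anti-CD3 or without the ElkSapKO array of mouse 1 or 2, and Mrps15 without WT mouse 1 or 2 or ElkSapKO mouse 1. Over all 24 fits without 1 array, their adjusted p ran up to 0.157 in Mrps18c, 0.115 in Mrpl20, 0.229 in Mrps18a and 0.164 in Mrps15. Calls near the threshold were lost in 18 of these fits for Mrpl39, in 17 for Mrps9 and in 19 for Mrps15 untreated. Signs stayed the same in all of them.

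Of the 7 members called in ElkSapKO, 3 held the ETS core in their window (Mrpl52, Mrps18c and Mrps18a) and 4 did not (Mrps15, Mrpl20, Mrpl39 and Mrps9). The 25 members with the core had a median difference from WT of 0.0164 untreated, with a range of −0.268 to 0.702, and the 42 without it had −0.0443, with a range of −0.562 to 0.353. With anti-CD3 the medians were −0.00332 and −0.0195. In the mean response to anti-CD3 they were −0.0187 and −0.058. The ranges overlapped in each case, and no test was made.

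Among other genes of mitochondrial translation the calls in ElkSapKO were lower more often than higher, as were those of all genes, of which 489 of 626 called untreated and 987 of 1242 called with anti-CD3 were lower. Of 11 translation factors, 0 were higher and 1 lower in each state: Gfm2, a factor for ribosome recycling, untreated (−0.87 ± 0.215 SE, adjusted p = 0.0296; mean signal 6.55), and Tufm, the elongation factor that brings the tRNA, with anti-CD3 (−0.56 ± 0.156 SE, adjusted p = 0.0331). Of 24 assembly and RNA modification genes, 2 were lower in both states, with 1 higher under anti-CD3. Eral1, which binds the small ribosomal RNA during assembly, differed by −0.79 untreated (adjusted p = 0.00757) and −0.63 with anti-CD3 (adjusted p = 0.0155). Mettl17, another small subunit assembly factor, differed by −0.66 (adjusted p = 0.0274) and −0.54 (adjusted p = 0.0456). Fastkd2, a large subunit assembly factor, was higher by 1.11 with anti-CD3 (adjusted p = 0.0207; mean signal 6.48). Gfm2 and Fastkd2 thus had mean signals below that of the highest background gene. None of the 16 tRNA synthetases was called in either state.

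Of 11 regulators of nuclear mitochondrial genes, 2 were lower in both states and none higher. Of all genes, 2.69% were called lower and 0.753% higher untreated, and 5.43% lower and 1.4% higher with anti-CD3. Gabpb1, the partner of the ETS protein Gabpa, differed by −0.78 untreated (adjusted p = 0.0144) and −0.55 with anti-CD3 (adjusted p = 0.0465). Nrf1 differed by −0.48 (adjusted p = 0.0391) and −0.46 (adjusted p = 0.0319). Slirp, which stabilises mitochondrial messenger RNAs, was the 1 gene called of the 12 for mitochondrial transcription and mRNA binding, higher by 0.47 with anti-CD3 (adjusted p = 0.0375).

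These calls, like those of the members, depended on the model. With the Actb 3′ minus 5′ difference as a covariate, none of the 5 untreated and none of the 7 anti-CD3 calls held in these lists (adjusted p from 0.568 to 0.879). With dap class 1 held untreated and 0 with anti-CD3, and with only the groups compared 0 and 2. With probe sets averaged, 2 held in each state: Gfm2 and Gabpb1 untreated, and Slirp and Gabpb1 with anti-CD3. Nrf1 then differed by −0.02 in both states (adjusted p = 0.898 and 0.957). Of the 14 DP thymocyte markers, 3 were also called lower untreated and 2 with anti-CD3, and their part in these calls was not tested.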

How the data were processed

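The members and gene lists were chosen with earlier results of these data known. The values were the log2 signals that the authors deposited for 45101 probe sets, made by RMA with affy per the submitters' processing notes; RMA subtracts background, gives all arrays 1 distribution and fits each probe set, so shifts shared by all genes are removed. Their versions are not stated in these notes. Of the probe sets, 64 were controls, 34945 had a single gene symbol, 932 several and 9160 none. Per gene the single-symbol probe set with the highest mean was kept; the 76 members had 156 such probe sets, 42 members having more than 1. Levels of different genes are log2 array signals and depend on the probe.

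A linear model with 8 group means and 16 residual degrees of freedom was fitted to all genes with limma 3.58.1 in R 4.3.3, giving 14 contrasts. P values were two-sided and adjusted by Benjamini-Hochberg within each contrast, and a gene was called, or said to have risen or fallen, at an adjusted p under 0.05. The scripts were tested on simulated data. Python 3.11.15 with matplotlib 3.10.9 drew the figures. The number of arrays limits the precision, and each group held 3 separate mice.

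Per the labels, arrays of both states with the same mouse number come from 1 animal. After group means were removed, the 12 pairs correlated at −0.0348 to 0.851 over 8361 genes, 10 of them above 0.1. The lowest were ElkSapKO mouse 2, at −0.0348, and ElkKO mice 1 and 2, at 0.1 and 0.201. The arrays of these ElkKO mice correlated better across mouse numbers than within them. The pairing of the labels was kept, and the changes within mice rest on it. The block with mouse left 8 residual degrees of freedom for responses and was random elsewhere. Alternatives were median centring, averaging of probe sets, a minimum mean log2 of 6, array weights, only the groups compared, the mouse block, dap class (boundary at 8 log2), the Actb 3′ minus 5′ difference, and leaving out each array. Named members were those called, the 2 with the smallest p where none was called, the 5 with the largest and the 5 with the smallest SD, those not above background, those whose probe sets disagreed and a short list of members with known particular roles; Mrpl38 and Mrps6 in the mean response and Fau were added after their values were seen. Mbp, at 9.97 log2, was left out of the background genes after its value was seen. Whether groups overlapped is described for members mostly picked by p on the same arrays. It therefore adds no support to a difference.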

Additional observations from a re-analysis of the deposited data

How the results depend on the processing

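Of 862 alternative values of member counts and medians, 788 stayed on the same side or within the spread, and of 961 values for single members, called or not, 840 stayed on the same side of the threshold, 110 lost a call, 11 gained one and 0 changed sign. The same settings, apart from leaving out arrays, were added after seeing the data for other mitochondrial genes called, with no change of sign. The counts of called members that follow are given without the share of all genes called in the same fit. They therefore cannot be set against that share. Array weights also lowered the adjusted p of the other mitochondrial genes called. For untreated ElkSapKO these ran from 0.00757 to 0.0391 in the main limma fit and from 5.84e-06 to 0.00303 with array weights. With array weights, limma called 5 members in the mean response, 1 in the ElkKO response, 2 in ElkKO against WT in each state, 31 in untreated ElkSapKO and 25 in ElkSapKO with anti-CD3; the member median was then 0.0473 in the ElkSapKO response, −0.102 in untreated ElkSapKO against WT and 0.0927 in the difference of the ElkSapKO response from WT. With the minimum mean log2 of 6 there was 1 call in ElkKO with anti-CD3 and 10 in ElkSapKO with anti-CD3. Averaging probe sets left 0 calls in untreated ElkSapKO and 3 with anti-CD3, and median centring left 3 with anti-CD3. Only the groups compared, dap class and the Actb difference each left 0 calls in ElkSapKO in both states. With mouse as a replicate block there was 1 call in ElkKO with anti-CD3, and the block changed no other count by over 1.5 times. Median centring moved the member median to −0.0754 in the SapKO response, −0.107 in the ElkKO response, 0.00816 in the ElkSapKO response and 0.103 in the difference of the ElkSapKO response from WT, and dap class moved it to 0.00565 in ElkKO with anti-CD3. The cause of these shifts was not tested. Leaving out 1 array gave counts of 1 to 2 in the mean response, 0 to 1 in ElkKO against WT in each state, 0 to 10 in untreated ElkSapKO and 0 to 17 in ElkSapKO with anti-CD3. Member medians then ranged from −0.0917 to −0.0214 in the SapKO response, −0.076 to −0.0412 in the ElkKO response, −0.0776 to 0.0371 in the ElkSapKO response and −0.103 to −0.00629 in untreated ElkSapKO against WT, and from −0.0463 to 0.106 in the difference of the ElkSapKO response from WT.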

Other observations

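Probe sets of a single member did not always move together. Of the 42 members with several probe sets, 21 had more than 1 above the highest background gene. Mrpl44 differed most among its 4 probe sets: in untreated ElkSapKO against WT its log2 differences ran from −0.73 to 0.31. The brightest probe set gave 0.10 (limma, adjusted p = 0.835 among probe sets) and the dimmest −0.73 (adjusted p = 0.00934). In the mean response to anti-CD3 another Mrpl44 probe set was called, at −0.27 (adjusted p = 0.0314), against −0.16 (adjusted p = 0.954) for the brightest. Mrps21, of the small subunit, had 0.01 and 0.74 on its probe sets in ElkKO with anti-CD3, and Mrpl19, of the large subunit, −0.93 and −0.21 in untreated ElkSapKO. Which transcripts the probe sets read was not analysed here.

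Apart from Mrps18a and Mrps18c, described above, the members listed for known particular roles gave no call on their brightest probe set. Mrpl12, of the ribosomal stalk and also a partner of the mitochondrial RNA polymerase, had means of 9.12 ± 0.128 (SD, n = 3) in untreated WT and 8.92 ± 0.269 (SD, n = 3) in untreated ElkSapKO. Mrps12, the protein of decoding accuracy, had 8.64 ± 0.0253 and 8.45 ± 0.14 (SD, n = 3 each). Mrpl41 had 8.97 ± 0.156 and 9.23 ± 0.296, and Mrps30 8.75 ± 0.101 and 8.60 ± 0.0779 (SD, n = 3 each). Mrps36 had 8.34 ± 0.096 and 8.52 ± 0.0643 (SD, n = 3 each). The divergent pair Mrpl46 and Mrps11 had mean responses to anti-CD3 of −0.02 ± 0.0514 and −0.002 ± 0.0585 (SE). By chromosome, 11 members lie on chromosome 11 and 8 on chromosome 17.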
